A study of Mus musculus with 11 samples.

Results

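Peaks of the chromatin protein Smchd1 in mouse neural stem cells were examined at 10 T-box genes: Tbx1, Tbx2, Tbx3, Tbx4, Tbx5, Tbx6, Tbx15, Tbx18, Tbx20 and Tbx21. These members of the T-box family were chosen by name, with earlier results of these data known, from 21779 coding genes of the RefSeq annotation. All 10 names were found there. For each gene, the deposited peaks were counted in its annotated span, within 5 kb of it and within 50 kb of it. Neural stem cell lines had been made from C57BL/6 embryos at E14.5 and were kept for at most 20 passages. The knock-in lines were homozygous for an allele that fuses Smchd1 to GFP (Smchd1 GFP/GFP), and the control lines were wild-type, with no tag. Both were put through pull-down with an antibody to GFP, and whole cell extract was sequenced as input. In the sonication experiment, cross-linked chromatin was sonicated for 30 min, and all 6 libraries came from female cells, with 2 libraries in each of the knock-in, untagged and input groups. In the experiment with micrococcal nuclease (MNase), both the knock-in and the untagged group consisted of a male library and a female library, and 1 input library came from female cells. The series addressed binding on the inactive X with sonication and binding on the autosomes with MNase. Gene expression was not measured, so the labelled cell type was not checked against its marker genes.

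Each experiment was summarised by its authors as 1 list of peak positions with no value per library or per peak. The MNase list held 2840 peaks of 300 to 16200 bp (median 450 bp), and the sonication list held 2196 peaks of 300 to 3150 bp (median 300 bp). Depth and the spread between replicates are therefore unknown, no test between knock-in and wild-type libraries was possible, and all counts are descriptions of 2 lists. The sources used here do not give how the untagged and input libraries were used in calling peaks. Tagged protein and untagged background at a given peak were thus not compared.

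T-box genes encode transcription factors that share a DNA-binding domain, the T-box, and act in the embryo in a dose-sensitive way to pattern mesoderm, heart, limbs and other organs. Most are silent outside the tissues that need them, and many are textbook targets of Polycomb repression in stem cells. Smchd1 is a non-canonical member of the SMC family of chromosome proteins, known for its part in silencing on the inactive X and at clusters of autosomal genes.

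MNase peaks lay at 4 of the 10 members: Tbx18, Tbx20, Tbx15 and Tbx3. All 4 had a peak that overlapped the gene itself, where 4.13% of coding genes had one. The count stayed at 4 within 5 kb, against 5.28% of coding genes, and at 4 within 50 kb, against 11.3% of coding genes. Because the members were chosen with earlier results of these data known, the gap to these shares cannot be read as a trait of the family. The other 7 T-box genes had no MNase peak within 50 kb. The median member and the median coding gene both had 0 peaks within 5 kb. Within 5 kb there were 10 distinct MNase peaks, 300 to 1800 bp wide, with a median of 750 bp and a summed width of 8.85 kb. Of these, 9 were wider than 300 bp, the smallest width in the list, which 61.8% of all MNase peaks exceeded. The members with a peak lay on 3 chromosomes, and none shared a peak with another member.

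**Figure D1:**
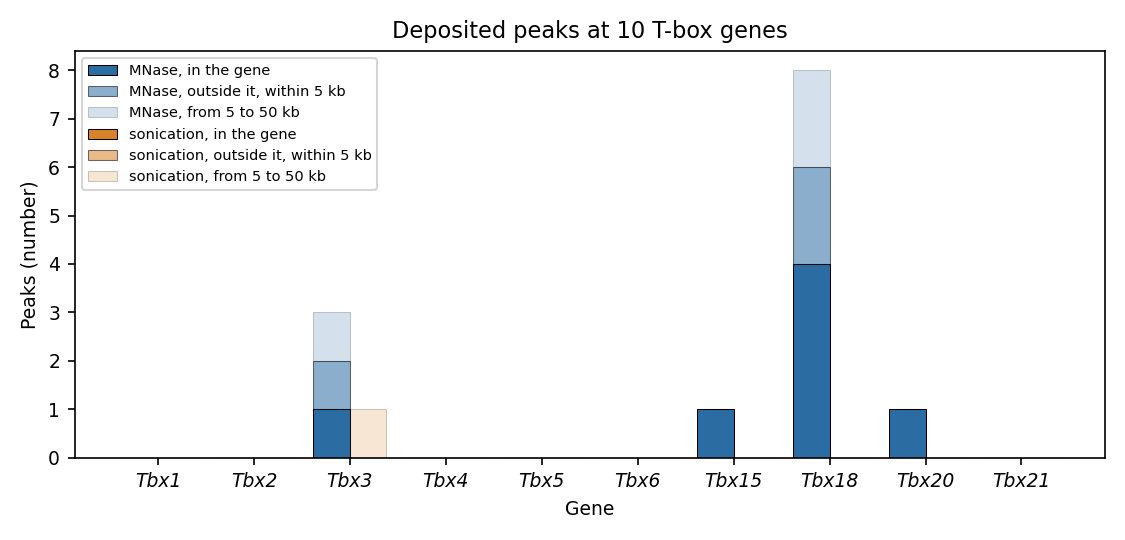
Number of deposited peaks (vertical axis) at each of the 10 genes (horizontal axis), stacked by distance from the gene; blue bars are the MNase list and orange bars the sonication list, with 1 list per experiment and so no error bars. Tbx18 had 8 MNase peaks within 50 kb, Tbx3 had 3, Tbx15 and Tbx20 had 1 each and the others 0, and the single sonication peak was near Tbx3.

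The Tbx1 subfamily holds Tbx1, Tbx15, Tbx18 and Tbx20 and also Tbx10 and Tbx22. Of its 6 genes, 3 had an MNase peak within 5 kb, against 5.28% of coding genes. There were 8 peaks among them, of which 6 were at Tbx18, where adjoining peaks are counted separately. In the Tbx2 subfamily, which holds Tbx2, Tbx3, Tbx4 and Tbx5, 1 of 4 had a peak, with 2 peaks. The subfamilies of Tbx6 (2 genes), of Tbx21 (3 genes) and of T (2 genes) had 0 peaks. With so few genes, this is near the 5.28% of coding genes. This grouping was made after the values were seen, and the difference between the subfamilies was not tested.

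Tbx18, a gene of the epicardium, the anterior somite and the mesenchyme around the ureter, had the most peaks. It spans 28.5 kb, from 87702800 to 87731260 on chromosome 9 in mm10, and is read from the minus strand. There were 4 peaks in the gene, 6 within 5 kb and 8 within 50 kb. The 8 peaks spanned 14.6 kb, of which 7.05 kb (48.5%) was in peaks, and they were gathered around the start of the gene. None was found in the remainder of the gene body or beyond its 3′ end up to 50 kb.

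The peaks of Tbx18 formed 2 adjoining runs and 3 separate peaks. The first run crossed the start site: a peak of 1800 bp reached from 140 bp upstream to 1659 bp downstream of it, and a peak of 1200 bp adjoined it on the upstream side, from 141 to 1340 bp upstream. Together they covered 3000 bp with no gap. The second run lay further into the gene, after a gap of 750 bp, and was made up of peaks of 750, 600 and 1050 bp. It covered 2400 bp, from 2410 to 4809 bp downstream of the start site. The separate peaks, of 450, 450 and 750 bp, began 4641, 6891 and 8991 bp upstream, which puts the first inside the 5 kb window and the others outside it. The farthest overlapped the long non-coding RNA gene Gm36767. Where a continuous stretch is split into peaks is a property of the list, and the number of peaks depends on it where the runs do not.

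Within 5 kb of Tbx18 peaks occurred at 156 per Mb, and over the autosomes at 1.18 per Mb. Tbx18 was taken as the member with the most peaks, so a density above the autosomal average follows from that choice. Adjoining peaks were counted separately in it. Of all coding genes, 57 (0.262%) had 6 or more MNase peaks within 5 kb, 46 of them more than Tbx18. By summed peak width, 51 coding genes were above it. The peak of 1800 bp over its start site was exceeded in width by 81 of the 2840 peaks (2.85%).

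**Figure D2:**
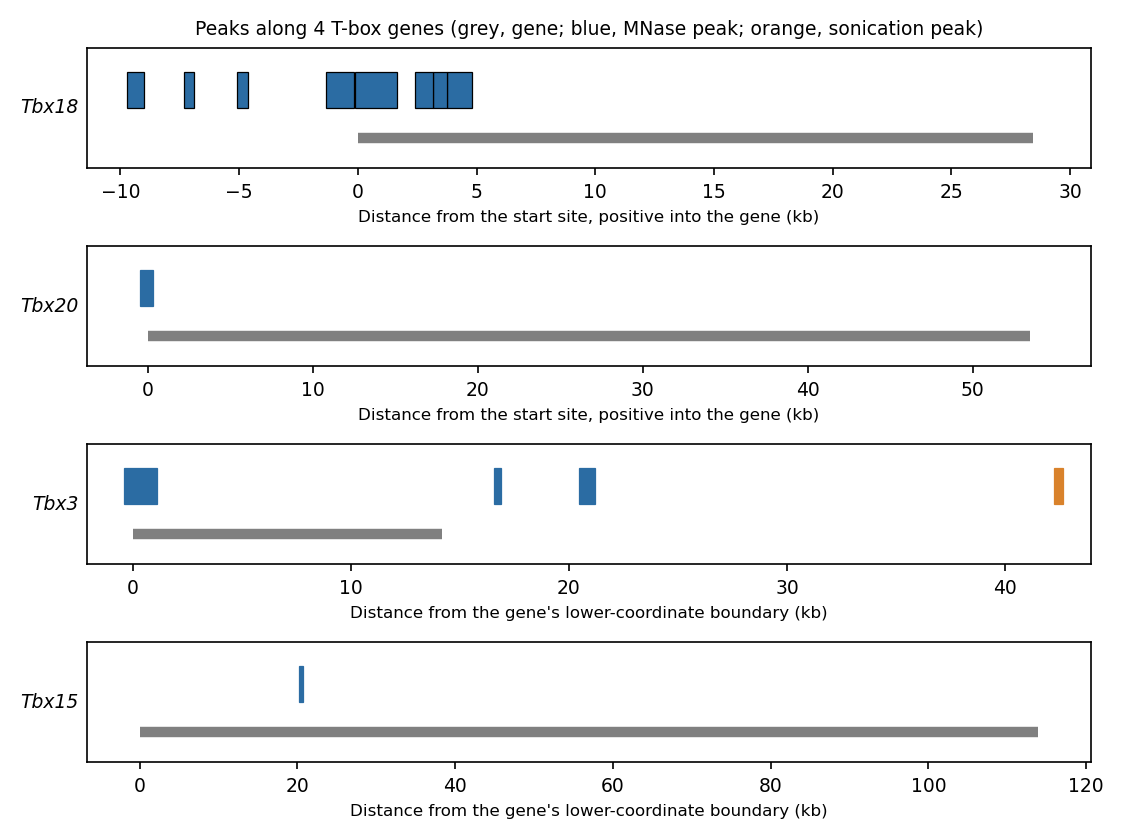
MNase peaks (blue) and sonication peaks (orange) along Tbx18, Tbx20, Tbx3 and Tbx15 (grey bar, annotated gene), by distance in kb; Tbx18 and Tbx20 are drawn from their start site with the gene to the right, Tbx3 and Tbx15 from the boundary with the lower coordinate, and each panel has its own scale. Peaks of Tbx18 cluster from about the start site outwards on both sides, that of Tbx20 covers the start site, and that of Tbx15 lies inside the gene.

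Tbx20, which encodes a factor needed for heart development, had 1 MNase peak. The gene spans 53.5 kb, from 24720812 to 24774303 on chromosome 9, on the minus strand. Its peak, of 750 bp from 24774001 to 24774750, covered the start site, from 447 bp upstream to 302 bp downstream. Of the list, 21.7% was as wide or wider. No other MNase peak lay within 50 kb, and the remaining length of the gene had none.

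The promoters of Tbx18 and Tbx20 are shown because all 300 bases of each lay in MNase peaks. At Tbx18 these were 2 adjoining peaks that met within the promoter, and at Tbx20 it was 1 peak. Those of Tbx6 and Tbx21 are shown because no MNase peak lay near. Each runs 5′ to 3′ from 250 bases before to 50 bases after the RefSeq start site in GRCm38.p6, and capitals mark CpG dinucleotides, the pairs at which DNA can be methylated. The Tbx18 promoter is chr9:87731211-87731510 and the Tbx20 promoter chr9:24774254-24774553, both on the minus strand. The Tbx6 promoter is chr7:126781233-126781532 on the plus strand and the Tbx21 promoter chr11:97115282-97115581 on the minus strand.
Tbx18: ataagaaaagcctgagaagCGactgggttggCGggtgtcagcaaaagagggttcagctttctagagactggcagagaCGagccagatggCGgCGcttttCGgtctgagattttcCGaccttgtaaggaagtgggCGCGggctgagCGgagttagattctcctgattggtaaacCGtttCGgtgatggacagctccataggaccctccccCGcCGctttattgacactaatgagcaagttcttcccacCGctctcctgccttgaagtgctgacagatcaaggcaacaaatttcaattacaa
Tbx20: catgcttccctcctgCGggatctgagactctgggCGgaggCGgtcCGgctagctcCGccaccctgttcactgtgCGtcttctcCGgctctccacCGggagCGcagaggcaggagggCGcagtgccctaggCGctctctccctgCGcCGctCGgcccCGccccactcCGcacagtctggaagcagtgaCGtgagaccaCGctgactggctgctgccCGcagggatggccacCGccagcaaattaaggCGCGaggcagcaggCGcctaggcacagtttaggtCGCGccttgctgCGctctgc
Tbx6: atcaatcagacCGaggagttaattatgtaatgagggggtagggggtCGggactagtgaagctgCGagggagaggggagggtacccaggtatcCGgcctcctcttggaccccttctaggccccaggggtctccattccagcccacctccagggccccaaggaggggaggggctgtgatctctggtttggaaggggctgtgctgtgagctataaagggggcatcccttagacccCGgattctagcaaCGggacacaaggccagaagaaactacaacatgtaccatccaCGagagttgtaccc
Tbx21: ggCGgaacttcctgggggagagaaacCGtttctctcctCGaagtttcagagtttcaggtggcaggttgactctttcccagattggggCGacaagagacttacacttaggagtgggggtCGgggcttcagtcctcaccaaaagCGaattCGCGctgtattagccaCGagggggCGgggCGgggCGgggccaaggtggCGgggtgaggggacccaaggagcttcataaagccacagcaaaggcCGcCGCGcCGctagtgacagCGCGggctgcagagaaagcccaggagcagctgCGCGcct

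Of the members, 6 had a promoter in the RefSeq table, 7 promoters in all since Tbx1 has 2. An MNase peak overlapped 2 of these 7, where 0.858% of the 32851 promoters of the table were overlapped. A sonication peak overlapped 0.0761% of the promoters of the table and 0 of the 7. The table gave no promoter for Tbx2, Tbx3, Tbx5 and Tbx15. The only Tbx4 promoter has its start site at 85896765, inside the gene and not at its boundary at 85886367. The values given for Tbx4 below belong to that inner start site.

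The promoters with a peak differed from each other in composition. That of Tbx20 was 68.3% G and C with 26 CpG, and that of Tbx18 was 51.7% G and C with 15 CpG. Their observed to expected CpG ratios, which allow for base composition, were 0.745 and 0.755. Without a peak, the Tbx21 promoter had a ratio of 0.754 with 21 CpG and the inner Tbx1 promoter 0.729 with 26 CpG, so these overlapped the values of the promoters with a peak. The outer Tbx1 promoter had a ratio of 0.633, Tbx4 had 0.314 and Tbx6 had 0.286 with 7 CpG. Over the whole table, the median promoter had 7 CpG and a ratio of 0.384, and the median of the 282 promoters with an MNase peak was 20 CpG and a ratio of 0.756.

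**Figure D3:**
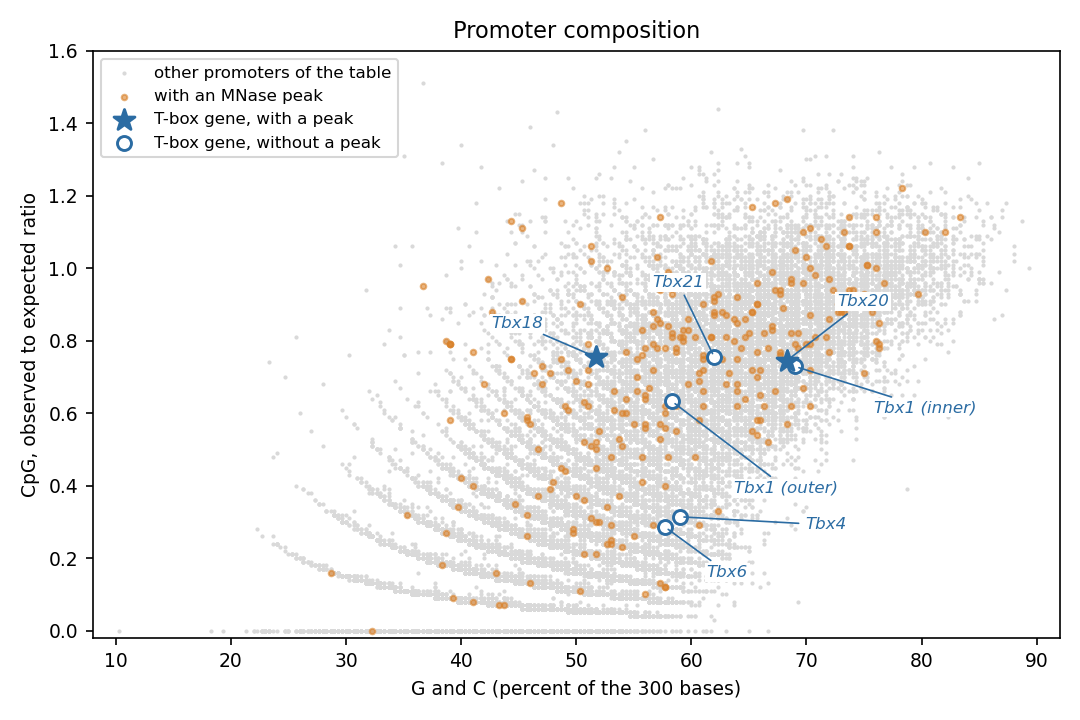
Percent of G and C (horizontal axis) and observed to expected CpG ratio (vertical axis) of 300-base promoters: grey points are promoters of the table without an MNase peak, orange points those with one, stars the T-box promoters with a peak and open circles those without; 1 promoter beyond the top of the axis is not drawn. Tbx18 and Tbx20 lie at ratios of 0.755 and 0.745, close to Tbx21 at 0.754, which had no peak.

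Short motifs were matched in the same windows on both strands. The T-box half-site AGGTGTGA, the sequence that T-box factors recognise, matched none of the 7 promoters and 1.28% of the table. The GC box GGGCGG matched 2 times in Tbx20, 3 times in Tbx21 with matches that overlap each other by their end bases, 2 times in the inner Tbx1 promoter and once in Tbx4, and 35.7% of the table held it. The CCAAT box CCAAT matched Tbx18 and Tbx21 (37.4% of the table) and the TATA box TATAAA matched Tbx4 and Tbx6 (13.6% of the table). The E-box CANNTG matched Tbx18 once, Tbx21 and the outer Tbx1 promoter 2 times each and Tbx4 6 times, and was present in 72.3% of the table. No motif was held by both Tbx18 and Tbx20. The matches are letters in a window and not binding sites.

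Tbx15, a gene of skeletal and skin patterning, had 1 MNase peak away from its boundaries. The gene is the longest of the members, 113.9 kb from 99240348 to 99354260 on chromosome 3. Its peak, of 450 bp from 99260551 to 99261000, began 20.2 kb above the lower boundary, and 61.8% of the list was as wide or wider. The strand of Tbx15 is not given in the tables used, so the peak was not placed relative to its start site, and whether it lies in an exon or an intron was not determined.

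Tbx3, which encodes a repressor of the limb, heart conduction system and mammary gland, had 1 MNase peak at its boundary. The gene spans 14.2 kb, from 119670534 to 119684724 on chromosome 5. A peak of 1500 bp, from 119670151 to 119671650, crossed the lower boundary, with 1117 bp in the gene and 383 bp outside. It also overlapped Tbx3os1, a non-coding RNA gene beside Tbx3, and 5.07% of MNase peaks were as wide or wider. Beyond the upper boundary, a peak of 300 bp lay 2377 bp away and one of 750 bp lay 6277 bp away, inside and outside the 5 kb window, and both overlapped the non-coding gene Tbx3os2.

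Tbx3 and Tbx5, a gene of the heart and the forelimb, are neighbours on chromosome 5, and 111.8 kb lies between them. The 2 peaks above Tbx3 and 1 sonication peak were the only deposited peaks in that interval, all nearer to Tbx3. Tbx5, which spans 88.7 kb from 119796514 to 119885220, had 0 peaks in the gene, and its nearest MNase peak was 104.8 kb away. Tbx2, a repressor in the heart and limb, and Tbx4, a gene of the hindlimb and lung, form a similar pair on chromosome 11. Their interval of 44.4 kb held 0 peaks of either list, and the nearest MNase peak to both, from 86127751 to 86128200, was 285.8 kb from Tbx2 and 211.7 kb from Tbx4.

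Among the other members without a peak, Tbx21, the T-bet gene of type 1 helper T cells, lay 426.1 kb from the nearest MNase peak. Tbx6, a gene of presomitic mesoderm, lay 306.0 kb away, and Tbx1, a gene of the pharyngeal arches and outflow tract, 1596 kb away. For the 6 members without a peak, the distances thus ran from 104.8 to 1596 kb. No member had its nearest MNase peak between 0 and 104.8 kb, so the count of 4 is the same at every extension up to 100 kb that was tried.

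**Figure D4:**
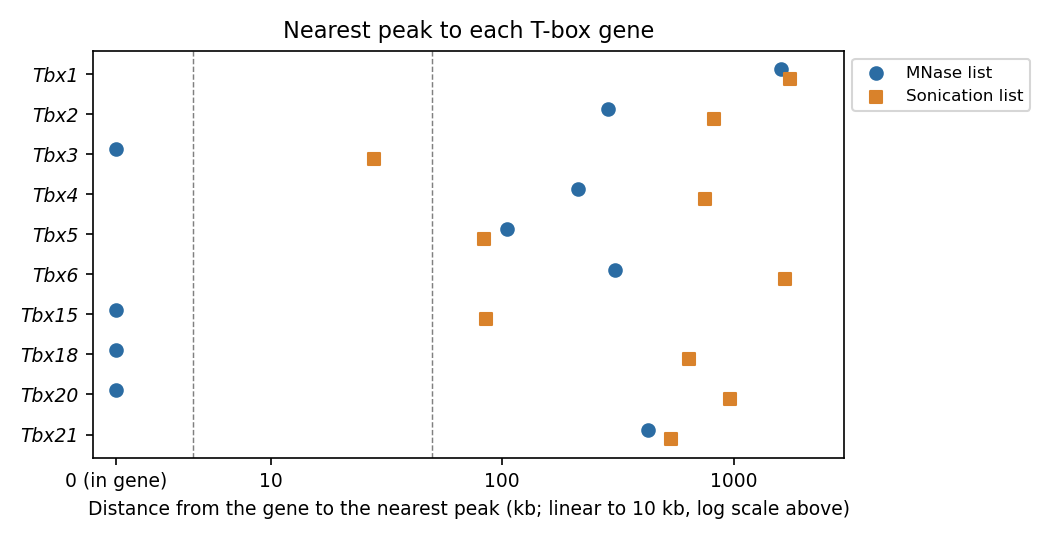
Distance in kb from each gene to the nearest MNase peak (blue circles) and the nearest sonication peak (orange squares), on an axis that is linear to 10 kb and logarithmic above; 0 means that a peak overlaps the gene, and the dashed lines stand at 5 and 50 kb. Tbx3, Tbx15, Tbx18 and Tbx20 sit at 0 in the MNase list, the other 6 lie beyond 100 kb, and in the sonication list 1 gene, Tbx3, lies within 50 kb.

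Gene length and neighbours are given beside these counts, since a longer window has more room for a peak. The 4 members with an MNase peak were 14.2 to 113.9 kb long and the 6 without were 4.07 to 88.7 kb long. The median was 41.0 kb with a peak and 13.5 kb without, so the genes with a peak were the longer ones by the median although the ranges overlap. The median of all 10 members was 22.9 kb and that of coding genes 17.2 kb. Within 50 kb of the gene, Tbx3 and Tbx18 had 0 other coding genes and Tbx15 and Tbx20 had 1 each. Of the members without a peak, Tbx5 had 0, Tbx4 had 1, Tbx2 had 2, Tbx1 had 3, Tbx21 had 4 and Tbx6 had 7. The part of length and of neighbouring genes in the counts was not tested.

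In the sonication list, no member had a peak in the gene, where 2.92% of coding genes had one, or within 5 kb, where 3.38% had one. With so few genes, 0 of 10 is close to those shares. All 10 members lie on autosomes, as do 1646 of the 2196 sonication peaks and 2828 of the 2840 MNase peaks. The shares of coding genes given for sonication peaks include genes of the sex chromosomes. A share for autosomal genes alone is not given here. Within 50 kb, 1 of 10 members had a sonication peak, against 7.84% of coding genes. That peak, of 450 bp from 119712751 to 119713200, lay 28.0 kb above Tbx3 and overlapped no annotated gene. It was also the nearest sonication peak to Tbx5, at 83.3 kb. Tbx15 had its nearest at 84.9 kb and the other 7 members lay from 536.9 kb (Tbx21) to 1758 kb (Tbx1) from one. Tbx18, with the most MNase peaks, was 644.0 kb from the nearest sonication peak. Within 5 kb no member had a sonication peak, so no peak shared by both lists was possible there. The sonication peak above Tbx3 overlapped none of the MNase peaks near that gene. Fragmentation and the sex of the cells differed between the experiments, and their parts cannot be told apart. No member lay in any of the 11 broad domains in the authors' domain list. The share of all coding genes that lay in a domain is not given here, so this count has no background beside it.

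The remaining 7 T-box genes of the mouse had no MNase peak in the gene, within 5 kb or within 50 kb. The shares of coding genes with such a peak, 4.13%, 5.28% and 11.3%, are so low that 0 of 7 is near the background. These genes are T, the Brachyury gene of the notochord and mesoderm; Eomes and Tbr1, expressed in succession as cortical neurons form; Mga, whose protein also pairs with Max; Tbx10; Tbx19, a pituitary gene; and Tbx22, a palate gene on the X. Their nearest MNase peaks lay 129.8 kb (Tbr1) to 7814 kb (Tbx22) away. In the sonication list Tbx22 had 1 peak, of 300 bp from 107689801 to 107690100, which lay 821 bp above the gene. Thus 1 of 7 had a sonication peak within 5 kb, against 3.38% of coding genes. Tbx22 is the only gene of the 7 on the X, and 1646 of the 2196 sonication peaks are autosomal. The share among genes of the X is not given here, so 1 of 7 cannot be read as a trait of these genes. Tbx22 was also the only T-box gene in a broad domain, from 94985001 to 124630000 on the X. Every gene in that stretch of the X lies in the domain. The share of coding genes in a domain is not given here, so this count too has no background beside it. The difference between 4 of 10 and 0 of 7 was not tested.

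Genes that act with T-box factors had MNase peaks within 5 kb at 6 of 20 members, against 5.28% of coding genes. This list too was chosen with earlier results of these data known. Isl1, a LIM-homeobox gene of the second heart field and motor neurons, and Gata4, a zinc finger gene of heart and endoderm, had 7 each. Hand2, a basic helix-loop-helix gene of the heart and limb, had 4 and Gata6, another heart and endoderm factor, had 2. Sall1, a zinc finger gene of kidney and limb, and Pitx1, a homeobox gene of the hindlimb, had 1 each. The other 14, among them Nkx2-5, Gata5, Hand1 and Mef2c, had 0. Among 22 targets and downstream signals of T-box factors, 1 (4.55%) had an MNase peak within 5 kb, near the 5.28% of coding genes. It was Fgf10, a limb and lung growth factor gene, with 1 peak of 450 bp. Nppa, Gja5, Fgf8, Wnt3a, Dll1 and the other targets had 0. No gene of either list had a sonication peak within 5 kb, against 3.38% of coding genes, and with so few genes this is near that share.

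The MNase pattern of Tbx18 was compared with that of other coding genes by the number of peaks within 5 kb and then by their summed width, 5.85 kb at Tbx18. Besides Tbx18, 10 coding genes had 6 peaks, and these are the 10 genes named, so summed width only set their order. They were Foxa1 with a summed width of 5.10 kb, Hoxc12 with 7.35 kb, Prdm8 with 4.35 kb, Camta1 with 3.90 kb, Fezf1 with 3.30 kb, Dlx6 with 3.00 kb, Lrfn5 and Pcdh7 with 2.40 kb each, and Pcdha10 and Pcdha11 with 2.25 kb each. The 2 protocadherin alpha genes overlap and share their peaks. These genes ranged in length from 1.78 kb (Hoxc12) to 802.2 kb (Camta1), and Tbx18, at 28.5 kb, lay between them.

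**Figure D5:**
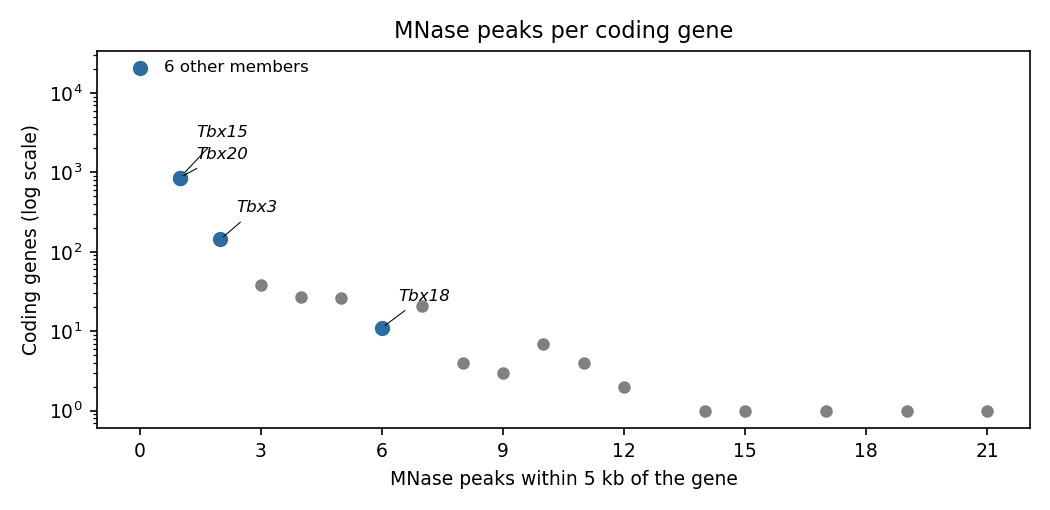
Number of coding genes (vertical axis, log scale) by the number of MNase peaks within 5 kb of the gene (horizontal axis), with the T-box members in blue and the other counts in grey. The 6 members with 0 peaks are among 20628 coding genes at that value, and 46 genes had more peaks than the 6 at Tbx18.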

How the data were processed

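The members and gene lists were chosen with earlier results of these data known. The authors deposited peak positions in base pairs for each experiment, pooled over libraries, and a table of domains, whose scores were not used here. The submitters' processing notes name bcl2fastq, Bowtie 0.12.9, MACS2 and mm10 without roles, and cells of the MNase table name SeqMonk. Peak starts lie on a grid of 150 bp, so widths carry that step.

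Genes came from a RefSeq table of GRCm38.p6, the assembly of mm10, without 340 records in the first 3 Mb of a chromosome other than Y. Strands and start sites came from the RefSeq promoter table. A peak counted for a gene when it overlapped the gene, alone or with 5 or 50 kb added on each side, by at least 1 bp (Python 3.11.15, pandas 2.3.3). No test was run, since no library has values. Counting was tested on simulated peaks at 200 genes, with 600 of 600 checks correct. Genes were named by rule: all members, list genes with a peak within 5 kb and the coding gene nearest to each peak near a member (that member in every case). The 10 coding genes nearest in number of MNase peaks to the member with the most were also named. Genes named with no peak within 5 kb were chosen after their values were seen. Alternatives were wider peaks, larger overlap, other distances and merged peaks. Protein sequences were not analysed here.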

Additional observations from a re-analysis of the deposited data

How the results depend on the processing

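Of 30 alternative settings, 27 left the count within 1.5 times of that reported, among them every limit to peaks wider than 300 bp and every overlap of at least 150 bp. Several settings started from a count of 0 and only narrowed the rule or merged peaks, so their counts had to stay at 0. They concern the sonication counts in the gene and within 5 kb, and the MNase count at the other T-box genes. The number of members with an MNase peak was 4 both in the gene and within 50 kb. The counts within 1 kb and within 10 kb therefore had to be 4 as well. Counting within 5 kb of a start site of the promoter table gave 2 members with an MNase peak in place of 4, because the table holds no promoter for Tbx3 and Tbx15. Merging peaks no more than 1 kb apart gave 6 MNase peaks in place of 10, because 5 peaks of Tbx18 became 1. Merging only adjoining peaks gave 7 in place of 10, which is within 1.5 times. Within 100 kb, 3 members in place of 1 had a sonication peak, Tbx5 and Tbx15 being added. Leaving out a library was not possible, since the lists hold no values per library. No paired analysis was possible because the replicate numbers of the sonication libraries are attached to no value.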

Other observations

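Beyond the members' promoters, the share of promoters with an MNase peak was set beside their number of CpG. The promoter table was split into 10 equal classes by CpG number. In the class with 0 or 1 CpG, 0.183% of promoters had a peak, in that with 17 to 23 CpG 1.77% did and in that with 31 to 67 CpG 1.55% did. Tbx6, with 7 CpG, and Tbx4, with 8, had no peak and are near the median of the table. Tbx18 and Tbx20, with a peak, and Tbx21 and both Tbx1 promoters, without one, are above it.

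Within 50 kb, 8 of 20 genes that act with T-box factors and 4 of 22 of their targets (18.2%) had an MNase peak, against 11.3% of coding genes, and the targets are near that background. Peaks between 5 and 50 kb away lay 5382 bp from Sall4, a stem cell and limb gene, and 31.2 kb from Tle1, a corepressor gene. Among the targets, peaks lay 13.2 kb from Bmp2, a morphogen gene, 9227 bp from Foxa2, a gene of endoderm and floor plate, and 6023 bp from the cell cycle inhibitor gene Cdkn2a. These genes have no peak within 5 kb.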
